A study of Mus musculus with 4 samples.

Results

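The ciliary small GTPases examined here are 10 genes, Ift22, Ift27, Arl3, Arl6, Arl13b, Rabl2, Rabl3, Rab23, Rab28 and Rab8a, chosen by their symbols in the deposited gene table. Each symbol matched 1 gene, so the set holds 10 of the 18471 genes read and 10 of the 17300 that passed a filter on low counts. RNA was sequenced from the retina of individual mouse embryos at embryonic day 19 (E19). The wild-type group had 2 libraries. The Foxn3KO group had 2 libraries, labelled Foxn3-/-, from the line C57BL/6NJ-Foxn3em1(IMPC)Bay/Mmnc, which lacks exon 3 of Foxn3, a gene for a forkhead transcription factor. The labels name no Cre driver or other restriction of the deletion to the retina. The strain of the wild-type embryos and their litters are not given in the labels. The series title sets Foxn3 in a transcriptional network for primary cilia of the developing retina, and the comparison asks how transcripts of the GTPases that move cargo into and out of cilia differ between the genotypes.

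Small GTPases are molecular switches: they bind effectors when loaded with GTP and release them after hydrolysis to GDP. Exchange factors load them, and GTPase-activating proteins switch them off. In cilia, the Rab-like proteins Ift22, Ift27 and Rabl2 work with the intraflagellar transport (IFT) trains that carry material along the axoneme, Arl3 and its exchange factor Arl13b release lipidated cargo inside the cilium, and Arl6 brings the BBSome, a membrane cargo adaptor, to the ciliary membrane. In the retina, the photoreceptor outer segment is a modified cilium, and defects of Arl3, Arl6, Ift27 or Rab28 cause retinal degeneration.

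Total counts ranged from 22543531 to 29360129 per library. Foxn3 itself had 2421 and 2712 counts in the wild-type libraries and 4181 and 3219 in the libraries labelled Foxn3KO. It was therefore higher where it is labelled as deleted (log2 fold change 0.54, SE 0.05, edgeR adjusted p = 7.8e-08). Counts per gene do not resolve exon 3, so directions below rest on the labels. Wild-type replicate 1 had 83073 Xist counts and 0 counts of Ddx3y, Eif2s3y and Kdm5d, a female pattern, whereas the other 3 libraries had 9 to 19 Xist counts. The wild-type libraries differed more from each other than the Foxn3KO libraries did, at a mean chi-square per gene of 10.1 against 1.89. Counting noise alone gives about 1. The wild-type mean includes Xist, at 83073 against 17 counts, and the other sex-linked genes above. It was not recomputed without them, so it does not measure the spread of a typical gene. Marker genes of retinal progenitors summed to 2240 to 2347 CPM (counts scaled to a common library size with TMM factors), those of photoreceptor precursors to 1072 to 1092 CPM and those of ganglion cells to 973 to 1047 CPM. The labelled tissue thus carried its markers in every library. Of these lists, 2 of 7 photoreceptor precursor markers were called higher and 1 of 6 ganglion cell markers lower. Of 7 progenitor markers, 1 was called higher and 1 lower. Over all tested genes, 12.3% were called higher and 9.66% lower (edgeR adjusted p under 0.05). Lens markers moved with the groups: the 5 of 8 markers analysed here, Cryaa, Cryab, Bfsp1, Bfsp2 and Mip, were all called higher and summed to 4.23 and 37.4 CPM in wild-type against 205 and 202 CPM in Foxn3KO. Pigment epithelium markers summed to 85.7 and 113 CPM against 70.2 and 71.3 CPM, with 3 of 7 called lower. Choroid plexus and ependyma markers, a list that shares Otx2 with the photoreceptor precursors, summed to 471 and 474 CPM against 472 and 462 CPM, with 2 of 6 tested called higher and 2 lower. Of the 5 lens and 7 pigment epithelium markers analysed here, none was at 0 in a library. The part of these marker genes in the results below was not tested. In bulk tissue, fewer cells of a type and less RNA per cell cannot be told apart.

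Of the 10 ciliary GTPases, 7 rose in the libraries labelled Foxn3KO (edgeR quasi-likelihood F test, Benjamini-Hochberg adjusted p under 0.05 over all tested genes) and 0 fell. The number that fell was also 0 at an unadjusted edgeR p under 0.05, in DESeq2 and in limma-voom. Ift22, Rabl2, Ift27, Arl6, Arl3, Rab28 and Arl13b rose, in descending order of fold change. Rab23, Rab8a and Rabl3 did not pass the threshold. Over all tested genes, 21.9% were called, 12.3% as higher and 9.66% as lower. The median log2 fold change was 0.36 over the 10 GTPases and -0.0047 over all tested genes. The summed level of the 10 genes was 538 and 530 CPM in the wild-type libraries and 756 and 737 CPM in the Foxn3KO libraries. With each library left out in turn, the members' median ranged from 0.308 to 0.404, and the log2 fold change of Arl13b from 0.19 to 0.29. DESeq2 called 6 of the 10, without Arl13b, where the share called over all genes was 15.2%.

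**Figure D1:**
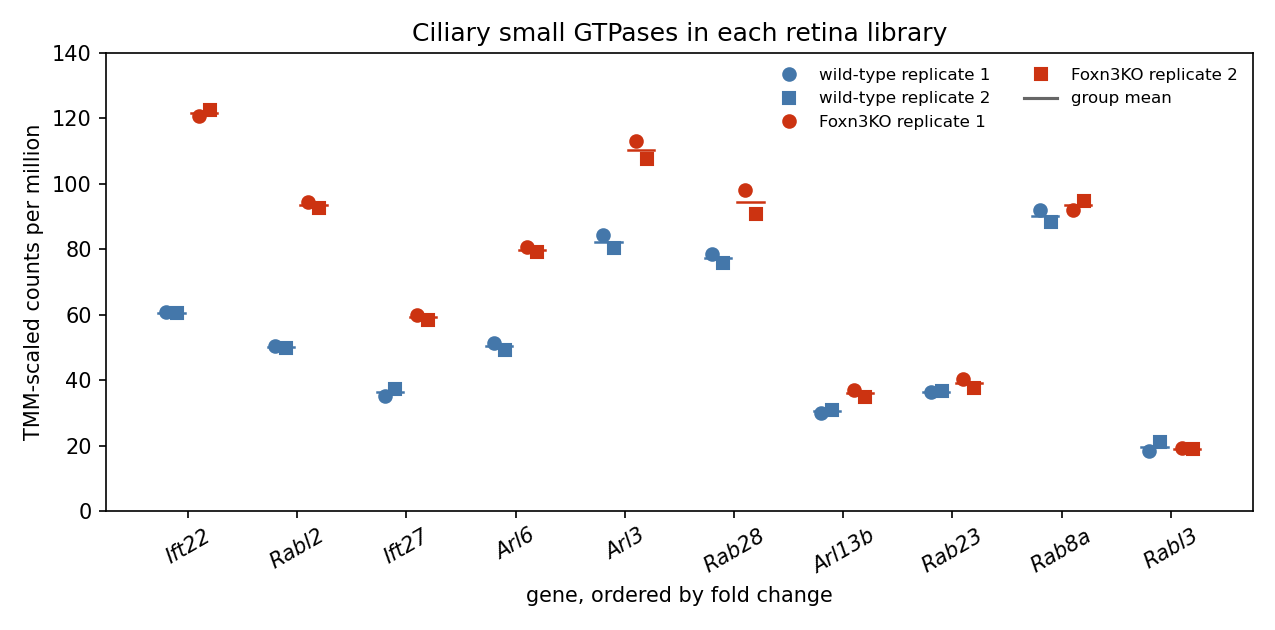
CPM (TMM-scaled counts, y axis) of each ciliary small GTPase (x axis, ordered by fold change) in the 4 retina libraries. Circles and squares are replicates 1 and 2, blue is wild-type, red is Foxn3KO, and short lines are group means. Ift22 lies at 60.9 and 60.4 against 121 and 122, while the points of Rab8a and Rabl3 lie close together.

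The Rab-like GTPases of intraflagellar transport rose most. Ift22, which docks on the Ift74 and Ift81 subunits of the IFT-B complex, measured 60.9 and 60.4 CPM in the wild-type libraries and 121 and 122 CPM in the Foxn3KO libraries. For this gene the libraries of each genotype lay close together, and the groups were far apart. This was a 2.01-fold rise, from 60.6 ± 0.32 to 122 ± 1.2 CPM (SD, n = 2 each), with a log2 fold change of 1.00 (SE 0.05, edgeR adjusted p = 3.3e-11). Rabl2, which is recruited to the base of the cilium and promotes the entry of assembled IFT trains, measured 50.5 and 49.8 CPM in wild-type and 94.4 and 92.7 CPM in Foxn3KO. Again no library of one group came near the other. The log2 fold change was 0.90 (SE 0.05, edgeR adjusted p = 3.7e-10), or 1.86-fold. Ift27 forms a heterodimer with Ift25 in the IFT-B complex and is needed for the BBSome to leave the cilium. It measured 35.2 and 37.4 CPM in wild-type and 59.8 and 58.5 CPM in Foxn3KO. Both Foxn3KO values lay well above both wild-type values, and the gap between the groups was far wider than that between replicates. Its log2 fold change was 0.71 (SE 0.06, edgeR adjusted p = 8.3e-08), or 1.63-fold. When each library was left out in turn, the log2 fold change ranged from 1.00 to 1.01 for Ift22, from 0.89 to 0.91 for Rabl2 and from 0.66 to 0.75 for Ift27.

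Promoter sequences are shown for the members with the largest rises, Ift22 and Rabl2, and for Rab23, whose change did not pass the threshold. Each is the stretch of 250 bases before a gene start annotated by RefSeq (build GRCm38.p6), read 5′ to 3′ on the gene's strand, with matches to the X-box in capitals. The X-box is the palindromic site bound by RFX transcription factors, searched here as GTNNCC, then 0 to 3 further bases, then GGNNAC. The windows are Ift22 at chr5:136907900-136908149 on the plus strand, Rabl2 at chr15:89591924-89592173 on the minus strand and Rab23 at chr1:33719646-33719895 on the plus strand.
Ift22: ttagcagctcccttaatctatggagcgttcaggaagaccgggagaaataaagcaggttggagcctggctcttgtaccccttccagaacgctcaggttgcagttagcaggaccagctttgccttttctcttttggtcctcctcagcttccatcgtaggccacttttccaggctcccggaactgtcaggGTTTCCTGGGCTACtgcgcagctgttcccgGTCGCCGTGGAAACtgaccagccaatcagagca
Rabl2: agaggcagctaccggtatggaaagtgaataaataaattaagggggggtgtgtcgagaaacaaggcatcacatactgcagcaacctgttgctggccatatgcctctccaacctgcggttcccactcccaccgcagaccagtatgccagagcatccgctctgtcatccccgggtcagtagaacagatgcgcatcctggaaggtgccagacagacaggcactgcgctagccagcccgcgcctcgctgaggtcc
Rab23: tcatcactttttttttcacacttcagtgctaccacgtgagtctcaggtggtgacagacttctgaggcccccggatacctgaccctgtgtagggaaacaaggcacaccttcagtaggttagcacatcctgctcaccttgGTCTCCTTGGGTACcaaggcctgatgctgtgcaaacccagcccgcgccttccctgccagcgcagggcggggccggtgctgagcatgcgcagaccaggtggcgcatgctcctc
Ift22 held 2 matches, the nearer of them 33 to 20 bases before the start. The Rab23 window shown held 1 match, 112 to 99 bases before that start, although its transcript did not pass the test. A further annotated start of Rab23, with the window chr1:33720169-33720418, held none. Rabl2 held none. Across the 12 windows that the table gives for the 10 members, counted from 250 bases before to 50 bases after the start, 2 held such a match (16.7%), against 3.86% of all 32851 windows. The single arm GTTGCC, searched on both strands and able to overlap an X-box, was found in Ift27 and Arl13b, in 2 of 12 windows against 12.5% of all. The forkhead core TGTTTAC, searched on both strands, was found in 0 of 12 windows and in 3.65% of all. These are matches of letters and show no binding. Rfx2 and Rfx3 were the only RFX genes read here. Rfx2 rose from 20.2 and 23.7 CPM to 57.0 and 60.2 CPM (edgeR adjusted p = 1.2e-10). Rfx3 rose from 76.1 and 74.2 CPM to 96.7 and 102 CPM (edgeR adjusted p = 1.4e-05).

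All 3 Arl GTPases rose. Arl6, mutated in Bardet-Biedl syndrome, measured 51.5 and 49.2 CPM in the wild-type libraries and 80.7 and 79.1 CPM in the Foxn3KO libraries. The groups did not overlap, and the log2 fold change was 0.67 (SE 0.05, edgeR adjusted p = 4.3e-08), or 1.59-fold. Arl3, the switch that unloads lipidated proteins from their carriers, measured 84.3 and 80.5 CPM in wild-type and 113 and 107 CPM in Foxn3KO. Its log2 fold change was 0.42 (SE 0.05, edgeR adjusted p = 7.3e-06). Arl13b, a membrane-anchored GTPase that marks the cilium and loads Arl3 with GTP, measured 30.1 and 30.8 CPM in wild-type and 37.2 and 34.7 CPM in Foxn3KO. Its groups were separate but close. The log2 fold change was 0.24 (SE 0.07, edgeR adjusted p = 0.0168), the smallest among the called members. Arl13b did not pass in DESeq2 (adjusted p = 0.0902) or when Foxn3KO replicate 1 was left out (log2 fold change 0.19, edgeR adjusted p = 0.239). The exchange factor and its substrate thus both rose in the fit over all libraries, Arl3 to 1.34-fold and Arl13b to 1.18-fold. The 95% intervals of their log2 fold changes, 0.31 to 0.53 for Arl3 and 0.10 to 0.38 for Arl13b, overlapped. In GENCODE M21, 2.62% of the exonic bases of Arl6 overlap a transcript on the opposite strand, 4930547E14Rik. Whether the counting used strand is not given in the sources used here. The other 9 members overlap no annotated exon of another gene.

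**Figure D2:**
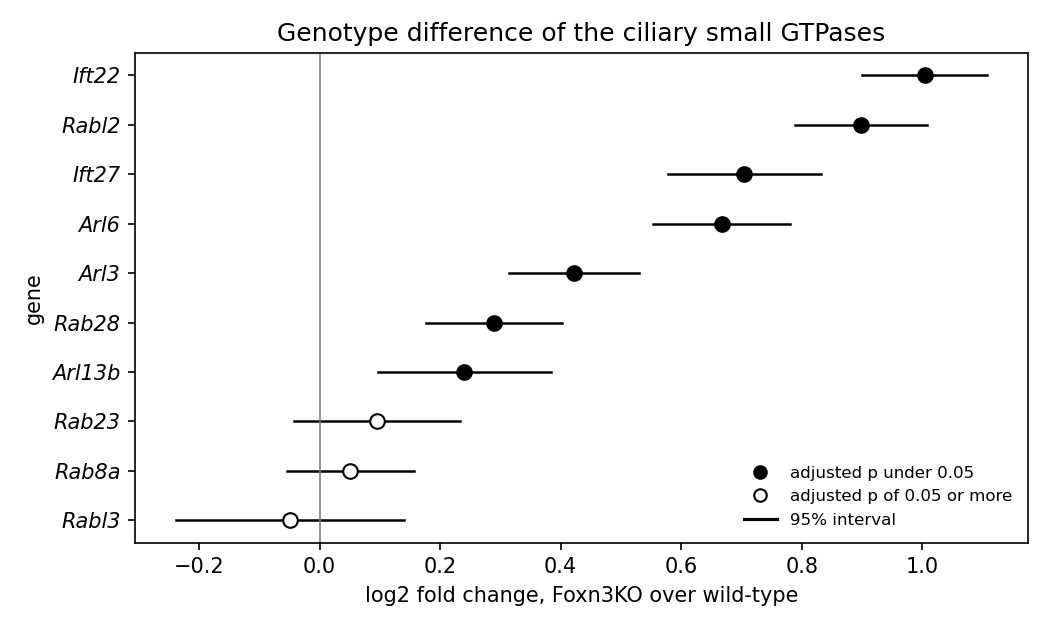
Log2 fold change of each ciliary small GTPase, Foxn3KO over wild-type (x axis), with its 95% interval as a line. Filled points passed the adjusted p threshold of 0.05 and open points did not; the intervals of Rab23, Rab8a and Rabl3 include 0.

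Of Rab28, Rab23, Rab8a and Rabl3, Rab28 alone was called. Rab28, a farnesylated Rab whose loss causes cone-rod dystrophy, measured 78.7 and 75.8 CPM in the wild-type libraries and 98.1 and 90.7 CPM in the Foxn3KO libraries. All Foxn3KO values were higher, with a wider gap between the Foxn3KO replicates than between the wild-type ones. Its log2 fold change was 0.29 (SE 0.05, edgeR adjusted p = 6.9e-04), or 1.22-fold. Rab23, a restrainer of Hedgehog signalling, measured 36.3 and 36.8 CPM in wild-type and 40.5 and 37.6 CPM in Foxn3KO. The lower Foxn3KO value lay less than 1 CPM above the higher wild-type value. The log2 fold change was 0.10 (95% interval -0.04 to 0.23, edgeR adjusted p = 0.337). Rab8a, which drives the delivery of vesicles to the ciliary base, measured 92.1 and 88.3 CPM in wild-type and 92.1 and 94.8 CPM in Foxn3KO. Wild-type replicate 1 and Foxn3KO replicate 1 were equal to 3 digits, and the log2 fold change was 0.05 (95% interval -0.05 to 0.16, edgeR adjusted p = 0.520). Rabl3, an atypical Rab-like GTPase, measured 18.3 and 21.1 CPM in wild-type and 19.2 and 18.9 CPM in Foxn3KO. Both Foxn3KO values fell between the wild-type values. The log2 fold change was -0.05 (95% interval -0.24 to 0.14, edgeR adjusted p = 0.748), and its sign turned without wild-type replicate 2, at 0.06. The intervals limit a rise of Rab8a to 1.11-fold, of Rab23 to 1.18-fold and of Rabl3 to 1.10-fold. In CPM, the groups did not overlap for 9 members, Rabl3 being the exception, against 60.4% of all tested genes. All 9 were higher in Foxn3KO, a pattern that 29.9% of all tested genes showed. For Rab8a the separation rests on a difference beyond the third digit.

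The order of the genes by level was read from the FPKM values of the authors, which are scaled by gene length. In wild-type, Arl3 was the most abundant at 33.0 ± 1.05 FPKM (SD, n = 2), followed by Arl6 at 23.9 ± 0.74 and Rab8a at 19.2 ± 0.54. Rab28 (17.0 ± 0.43), Rabl2 (16.9 ± 0.14) and Ift22 (16.7 ± 0.07) did not differ beyond their spread. Ift27 followed at 12.6 ± 0.57 FPKM. Arl13b at 5.96 ± 0.10, Rab23 at 4.39 ± 0.05 and Rabl3 at 3.08 ± 0.32 FPKM formed the low end. In Foxn3KO, Arl3 at 44.2 ± 1.6 FPKM and Arl6 at 38.0 ± 0.53 held the top places. Ift22 moved from place 6 to place 3 at 33.6 ± 0.33 FPKM, and Rabl2 from place 5 to place 4 at 31.5 ± 0.42. Rab8a moved from place 3 to place 7 at 19.9 ± 0.41 FPKM, within the spread of Rab28 at 20.8 ± 1.15. Ift27 stood slightly above Rab8a at 20.6 ± 0.31, with 20.8 and 20.4 FPKM against 19.6 and 20.2. The ratio of Ift22 to Rab8a in FPKM was 0.857 and 0.887 in the wild-type libraries and 1.70 and 1.67 in the Foxn3KO libraries. For Arl6 against Arl3 the ratio was 0.724 and 0.725 in wild-type and 0.845 and 0.873 in Foxn3KO.

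**Figure D3:**
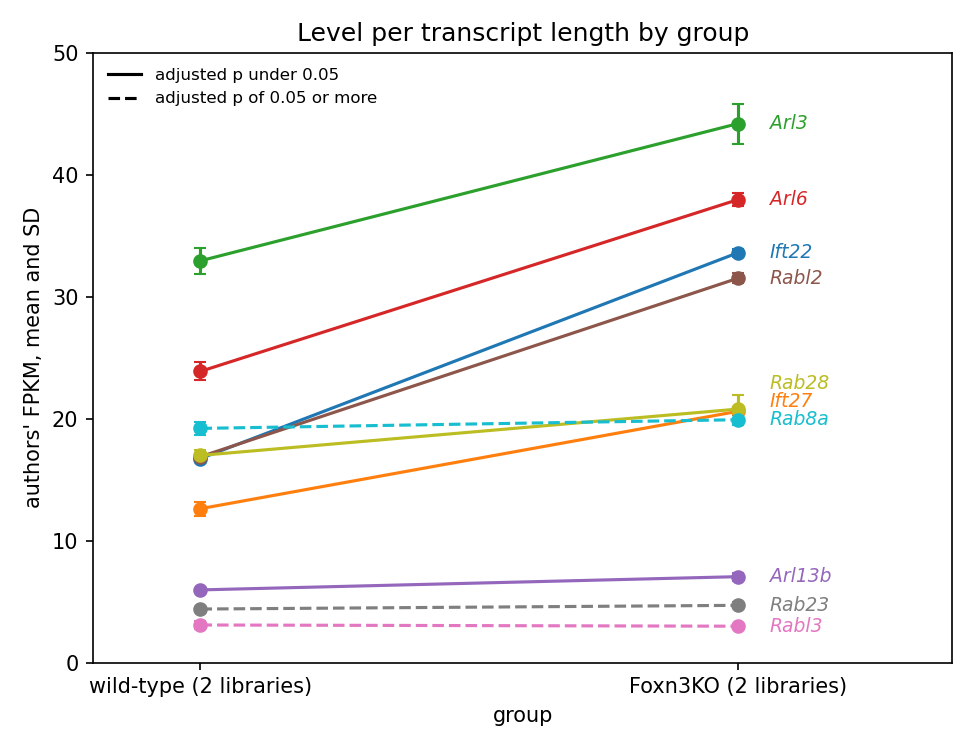
Mean FPKM of each member in wild-type (left) and Foxn3KO (right), with the SD over 2 libraries as bars. Solid lines join genes with an adjusted p under 0.05 and dashed lines the others; Ift22 and Rabl2 start beside Rab28 near 17 FPKM and end above 31 FPKM.

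The regulators and partners of these GTPases were read from 6 lists of 63 genes, of which 62 were tested. Of these, 23 were called higher and 3 lower, 41.9% in all. Over all tested genes, 21.9% were called, 12.3% as higher and 9.66% as lower. The partners named without a call, and Fuz, Cep43 and Unc119, were chosen for their role after their values were seen. Among 9 exchange factors, GTPase-activating proteins and their cofactors, 4 were called (44.4%), all higher, with a list median of 0.01. Rpgr, a ciliary protein mutated in X-linked retinitis pigmentosa and reported to load Rab8a, rose from 62.9 and 63.9 CPM to 141 and 138 CPM, a log2 fold change of 1.14. Intu and Fuz form the exchange factor of Rab23. Intu rose by 0.83 and Fuz by 0.43 in log2 units, and Wdpcp, which works with them in planar cell polarity and ciliogenesis, rose by 1.09 (largest edgeR adjusted p of the 4 called genes 1.4e-04). Rab23 itself thus had no call while both subunits of its exchange factor did. Rp2, the GTPase-activating protein of Arl3, had a log2 fold change of -0.19 (edgeR adjusted p = 0.0659). Rab3ip, the exchange factor of Rab8a, stood at 0.01.

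Effectors, cargo carriers and cargo gave 7 calls among 18 genes (38.9%), all higher, with a list median of 0.05. Lztfl1, which links the BBSome to Ift27-dependent export, rose from 62.2 and 58.3 CPM to 98.0 and 94.7 CPM. Its log2 fold change of 0.68 lay close to the 0.71 of Ift27. Unc119b, a carrier of myristoylated proteins that Arl3 unloads, rose by 0.58, and Unc119 in the same list by 0.17 (edgeR adjusted p = 0.0158 for Unc119). Pde6d, the carrier of prenylated proteins, stood at 0.07 (edgeR adjusted p = 0.402). The lipidated cargo Inpp5e and Cys1 had log2 fold changes of -0.12 and -0.04, and neither passed. Cys1 had only 10 and 17 counts in wild-type and 18 and 8 in Foxn3KO. Its 95% interval of -1.09 to 1.00 leaves its change undetermined. Cep19, the centriolar protein that recruits Rabl2, rose by 0.61, and its own anchor Cep43 by 0.37. Cep350, a further centrosomal gene of the list, stood at -0.13 (edgeR adjusted p = 0.0765). The edgeR adjusted p-values were 2.8e-08 for Lztfl1, 2.7e-08 for Unc119b, 7.6e-06 for Cep19 and 4.5e-05 for Cep43.

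All 3 IFT-B subunits that hold Ift22, Ift27 or Rabl2 were called, in both directions. The log2 fold change was 0.76 for Ift74 and 0.80 for Ift81 (edgeR adjusted p = 8.2e-10 and 1.5e-08). Ift25, the partner of Ift27, measured 18.3 and 16.7 CPM in wild-type and 15.4 and 13.3 CPM in Foxn3KO. It was called lower at a log2 fold change of -0.29 (edgeR adjusted p = 0.0486), in the direction opposite to Ift27. That call was lost in DESeq2 (adjusted p = 0.201), in limma-voom (adjusted p = 0.0573), without wild-type replicate 1 (edgeR adjusted p = 0.168) and without Foxn3KO replicate 2 (edgeR adjusted p = 0.416). Of the 8 BBSome subunits that Arl6 recruits, 7 were called higher (87.5%), with a median of 0.61. Bbs1, Bbs2 and Bbs9 rose by 0.82, 0.69 and 0.67, and Bbip1 stood at 0.01.

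The enzymes and chaperones that attach lipids to small GTPases or extract them from membranes made a list of 14 tested genes with a median of -0.00055 in log2 units. Of these, 2 were called higher and 1 lower (21.4%), near the 21.9% called over all tested genes. Chm, a Rab escort protein, dropped from 50.9 and 48.8 CPM to 39.6 and 41.1 CPM. Its log2 fold change was -0.30 (edgeR adjusted p = 0.00132). Chml in the same list stood at -0.20 (edgeR adjusted p = 0.109). Icmt and Nmt1 rose by 0.15 each (edgeR adjusted p = 0.0385 and 0.0370). Neither passed in DESeq2 (adjusted p = 0.106 and 0.109), under total count scaling (edgeR adjusted p = 0.0703 and 0.0694), without Foxn3KO replicate 1 (0.395 and 0.367) or without Foxn3KO replicate 2 (0.0895 and 0.133), and Icmt did not pass without wild-type replicate 2 (0.0519).

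**Figure D4:**
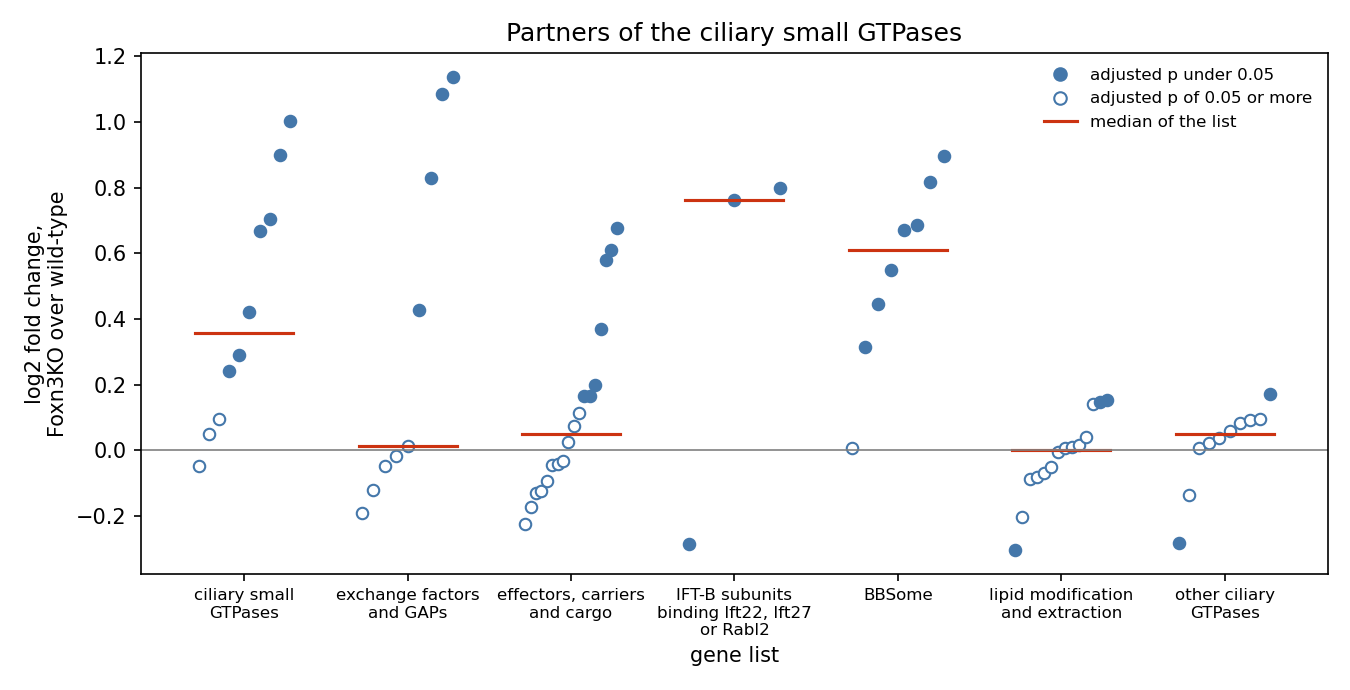
Log2 fold change, Foxn3KO over wild-type (y axis), of each gene in the ciliary small GTPase set and in the 6 partner lists (x axis). Filled points had an adjusted p under 0.05, open points did not, and red lines are medians; the BBSome median is 0.61 and that of the lipid modification list lies at 0.

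Other GTPases with ciliary roles were read for comparison. Of 10 tested, 1 was called higher and 1 lower (20%, near the 21.9% of all tested genes), and the median was 0.05. Rab11b, upstream of Rab8a in vesicle delivery, rose by 0.17, and Rab34, needed for ciliary vesicle formation, dropped by 0.28 in log2 units (edgeR adjusted p = 0.0139 and 0.00498). Rab11b did not pass without Foxn3KO replicate 1 (edgeR adjusted p = 0.162) or without Foxn3KO replicate 2 (0.0980), and Rab34 did not pass without Foxn3KO replicate 1 (0.188). Rab8b, the paralog of Rab8a, stood at -0.14 (edgeR adjusted p = 0.109).

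The Rab, Rabl, Arl and Arf genes outside the set served as the family background. Of 70 tested, 13 were called (18.6%, against 21.9% of all tested genes), 10 of them higher and 3 lower, with a median log2 fold change of 0.02. The family count was 8 in DESeq2, where the share called over all genes was 15.2%. Ranked by log2 fold change together with the members, the 80 genes had Ift22 at place 4, Rabl2 at 5, Ift27 at 7, Arl6 at 8, Arl3 at 9, Rab28 at 11 and Arl13b at 13. Rab23, Rab8a and Rabl3 stood at places 25, 34 and 56. Above Ift22 stood Rab36, Rab38 and Arl4a. Rab36 rose from 25.3 and 29.3 CPM to 79.6 and 80.8 CPM, a log2 fold change of 1.55, and Arl4a by 1.13 (edgeR adjusted p = 6.3e-12 and 3.4e-10). Rab38, named because of its place after its values were seen, had means of 0.362 and 0.999 CPM, a level that gives its fold a wide error (SE 0.44). Arf3 rose by 0.36. Among the called falls, Rab30 stood at -0.30 and Rab5b at -0.18 (edgeR adjusted p = 0.00405 and 0.0128). Neither passed without Foxn3KO replicate 1 (edgeR adjusted p = 0.0520 and 0.166), and Rab5b did not pass without Foxn3KO replicate 2 (0.123) or in DESeq2, where its adjusted p was 0.0500012. No test compared the members with the rest of the family.

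**Figure D5:**
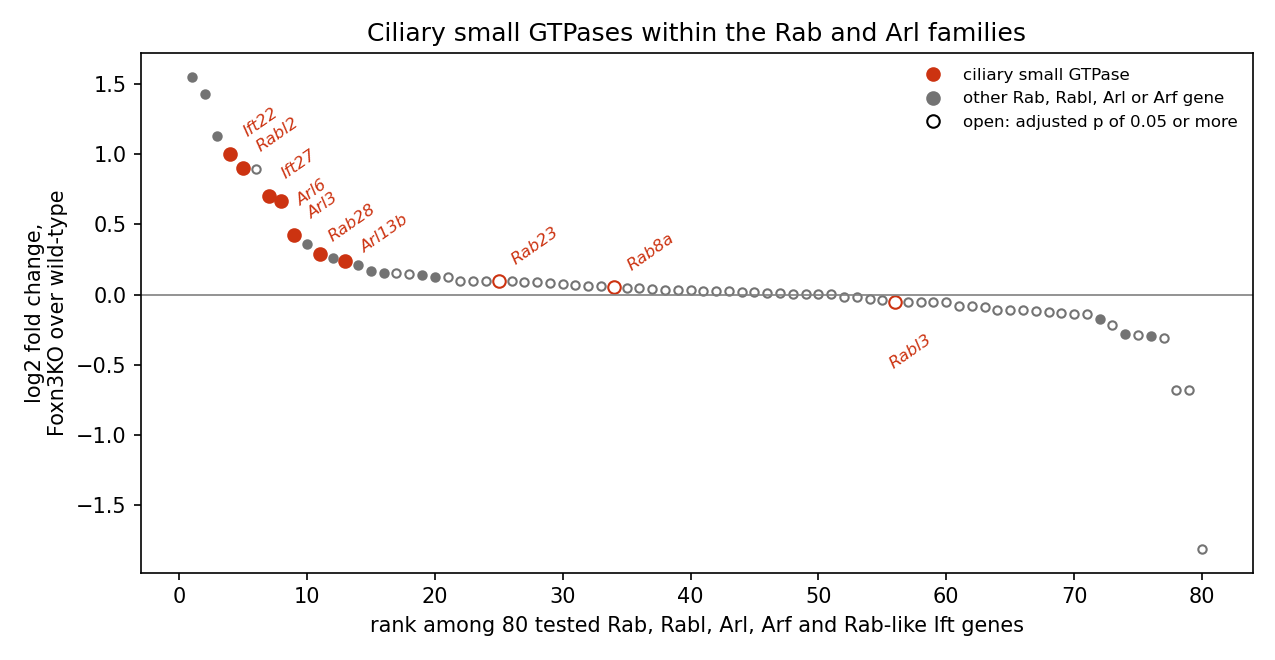
Log2 fold change, Foxn3KO over wild-type (y axis), of 80 tested genes ordered by rank (x axis). Red points are the ciliary small GTPases, grey points the other Rab, Rabl, Arl and Arf genes, and open points had an adjusted p of 0.05 or more; the 7 called members lie within the first 13 places.

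The authors' deposited table gives 6 of the 10 members an adjusted p under 0.05, all higher. Among the genes to which it assigns an adjusted p, 16% are under that threshold and 10.1% are under it and higher. In the authors' deposited table the log2 fold change is 1.00 for Ift22, 0.89 for Rabl2, 0.69 for Ift27 and 0.66 for Arl6. Arl13b is the member called by edgeR and not in the authors' deposited table, where its log2 fold change is 0.22 with an adjusted p of 0.0867. Outside all lists, the genes whose centred log2 CPM profile over the 4 libraries lay nearest to the mean profile of the members were Nup153, Enkd1 and Capn10, at Euclidean distances of 0.0059, 0.023 and 0.024.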

How the data were processed

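RNA of 4 retina libraries was measured by sequencing, 2 wild-type and 2 Foxn3KO, grouped by the labels. The authors deposited raw counts per gene and FPKM per library, per the file headers, with a mean signal, log2 fold changes with an error (read as a score), p-values and adjusted p-values of their own comparison. The submitters' processing notes name mm39 and DESeq2. The aligner, the counting tool, the annotation, the use of strand and the treatment of molecular identifiers are not given in the sources used here, so duplicates may remain and precision statements cover the spread between libraries only. Per the labels, the library kit was strand-specific.

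Counts of 18471 genes were filtered with filterByExpr (17300 left) and TMM-scaled. Genotype was tested in edgeR 4.0.16 (R 4.3.3) by its quasi-likelihood F test, set to the current fit (not the earlier default), with no other term, two-sided, Benjamini-Hochberg adjustment over all tested genes, threshold 0.05. Intervals are 95% on the moderated degrees of freedom. The test was checked on simulated data. Alternatives used DESeq2 1.42.0, limma 3.58.1 (voom), RLE or total count scaling, other filters, the earlier fit, a replicate block and each library left out. A lone library was then assumed to vary like the others.

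The members and lists were chosen with earlier results of these data known. Named were all members, Foxn3, Foxj1, Rfx2 and Rfx3, the 3 called genes with the smallest p per list (and per direction in the Rab and Arl family), and the 3 nearest profiles. Fuz, Cep43, Unc119, Rab38 and the partners without a call lie outside this rule. Foxj1 rose by 4.45 on the log2 scale. Promoters came from RefSeq GRCm38.p6 and matched all 10 members by symbol; since the counts are on another build, no gene coordinates are given. Marker lists of microglia (19.0 to 24.0 CPM summed), blood (29.7 to 77.8), muscle (7.97 to 10.1), and vessel and mesenchyme (373 to 398) were summed as well. In the vessel and mesenchyme list, 1 of 6 tested was called higher, against 12.3% of all tested genes. Figures were drawn with matplotlib 3.10.9.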

Additional observations from a re-analysis of the deposited data

How the results depend on the processing

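DESeq2 called 6 members. The other tests on all 4 libraries called 7: RLE size factors, scaling to total counts, leaving the low-count filter out, requiring 10 counts per library, voom, edgeR's earlier fit and the replicate block. With each library left out in turn, the count of members ranged from 6 to 7, and the members' median log2 fold change ranged from 0.308 to 0.404. Rabl3 ranged from -0.146 to 0.0597 and reversed without wild-type replicate 2. In DESeq2, 8 genes of the Rab and Arl family and 2425 genes in all were called, against 13 and 3795; the cause was not tested. With a library left out, the family count ranged from 6 (without Foxn3KO replicate 1) to 25 (without wild-type replicate 2), the partner lists from 19 to 31 calls, and all genes from 2323 (without Foxn3KO replicate 2) to 5067. Of all calls, 55.9% were higher, and 48.2% when scaled to total counts. The labels give no pairing of the samples by replicate number. The deviations of same-numbered libraries had a correlation of -0.0096 across genes, which cannot show that pairing is absent. The replicate block gave 4222 calls, of which 3792 were among the 3795, and the members' median was 0.355.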
